A study of Rattus norvegicus with 12 samples.

Results

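The genes described here are the claudins, cadherins, catenins and connexins measured in rat Sertoli cells, together with the nectins, occludin, the junctional adhesion molecules and the zonula occludens proteins that work beside them. They were taken by gene symbol from the annotation of a whole-transcript gene array, keeping probe sets of the main category that carried exactly 1 symbol. This gave 77 genes, on 80 probe sets, of the 18304 genes with 1 symbol and the 27342 main probe sets of the array. There were 22 claudins, 22 cadherins, 17 connexins, 6 catenins, 4 nectins, 3 genes of occludin and the junctional adhesion molecules, and 3 zonula occludens genes. Where a gene had several probe sets, the one with the highest mean over all arrays stood for it, which mattered for Cdh7, Cdh19 and Cdh24.

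The cells came from digested testes of 9-day-old rats and spent 24 h in primary culture with serum. The MBP group then received 0.1 mM of a compound that the labels give only as MBP for 24 h, and the control group received no MBP, or only solvent according to the design text. Each group holds 3 gene arrays, numbered 1 to 3, out of 12 arrays in all. The other 6 arrays measured microRNAs and were not used here. The strain, the number of animals per dish and what a number stands for are not given in the sources used here, so the spread between arrays of a group may be technical. All values are log2 signals, and a level is read only within a probe set, since probes differ in brightness.

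Cells of an epithelium are held together by several kinds of contact. At tight junctions the membrane proteins claudin and occludin close the gap between neighbouring cells, the junctional adhesion molecules lie beside them, and the zonula occludens proteins tie them to actin. At adherens junctions cadherins bind one another across the gap, nectins do the same with an immunoglobulin fold, and the catenins carry the force to actin. Connexins form the channels of gap junctions, through which ions and small molecules pass from cell to cell. Between Sertoli cells these contacts build the blood-testis barrier, which closes in the rat at a later age than the one sampled here, and claudin 11 and occludin are its best known tight junction strands.

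A signal was called above background when it was higher than the 95th percentile of the 1153 intron control probe sets of the same array. This level was 5.81, 5.85 and 6.18 in MBP cells and 5.88, 5.67 and 6.20 in control cells, for numbers 1 to 3. It is set on other probe sets, so a gene with dim probes can lie below it though transcribed. Of 24 Sertoli markers measured, 5 (20.8%) lay above it on all 6 arrays, near the 23.2% of all main probe sets, namely Wt1, Gata4, Clu, Ctsl1 and an Fshr probe set whose annotation also lists transcripts of Gapdh. Amh, Inha and Cldn11 lay below it on all 6 arrays. The list for peritubular myoid cells and fibroblasts, which surround the tubule, had 16 of its 18 measured markers above it on all 6 arrays. None of 8 epithelial and none of 9 endothelial markers were, and 1 of 14 germ cell markers was (Uchl1). The main probe sets include 5363 with no symbol, while each named gene stands by its brightest probe set. Their shares are therefore not drawn alike. In RNA from such a culture, fewer cells of a type and less RNA per cell cannot be told apart.

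The signal of 12 of the 77 junction genes (15.6%) exceeded the background level on each of the 6 arrays, as it did for 23.2% of all main probe sets. These 12 were Cldn12, Jam3, Tjp1, Cdh2, Cdh3, Cdh11, Ctnna1, Ctnnb1, Ctnnd1, Pvrl2, Pvrl3 and Gja1. Pvrl1 was above it on 3 arrays and Gja5 on 2, and the other 63 genes were below it on every array. By family, 3 of 6 catenins and 2 of 4 nectins were above background on all arrays. So were 1 of 3 zonula occludens genes and 1 of the 3 genes of occludin and the junctional adhesion molecules. In the large families the counts were 3 of 22 cadherins, 1 of 22 claudins and 1 of 17 connexins. The number of genes depended on where the level was set. It was 15 at the 90th percentile, with Cdh19 and Pvrl1 among those added, and 4 at the 99th, which left Cdh2, Ctnnb1, Ctnnd1 and Gja1. With the antigenomic control probe sets of each array in place of the intron controls it was 10, without Jam3 and Pvrl3.

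**Figure D1:**
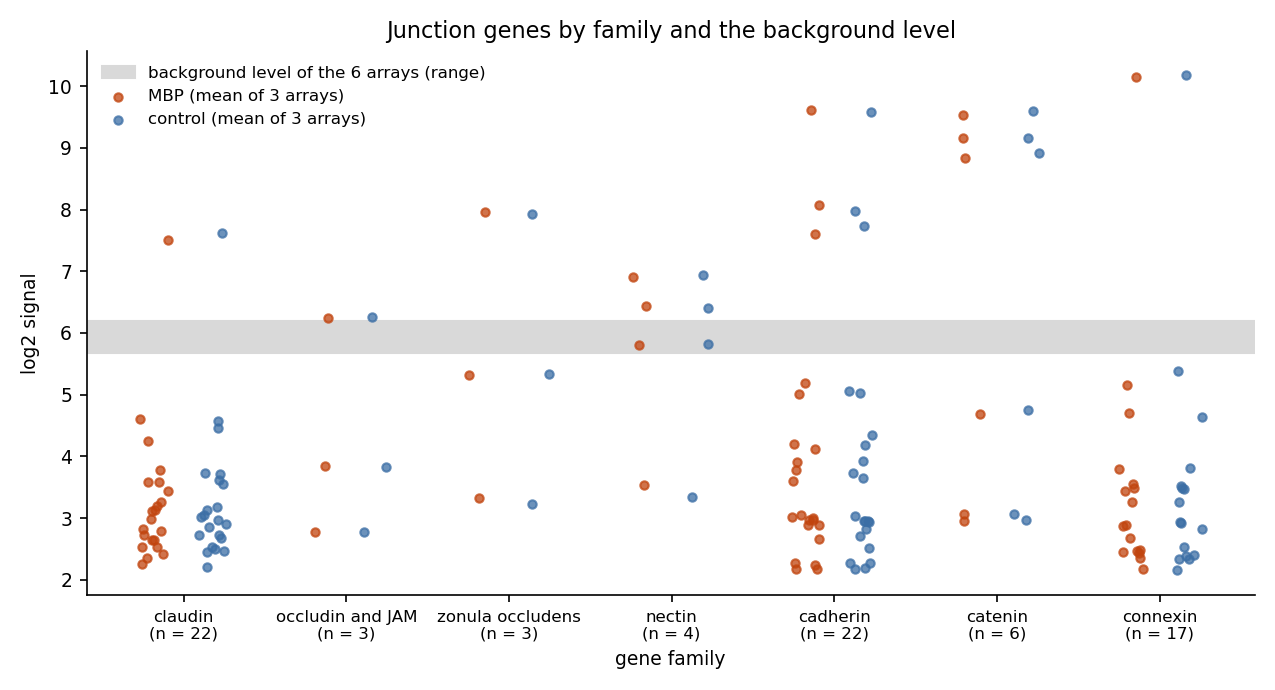
Mean log2 signal (y axis) of each junction gene in MBP cells (orange, left) and control cells (blue, right), by gene family (x axis), with each point the mean of 3 arrays and the grey band the range of the background level over the 6 arrays. Most claudins, cadherins and connexins lie under the band in both groups, and 1 claudin, 3 cadherins, 3 catenins and 1 connexin lie over it.

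The strand-forming genes of the tight junction were mostly below background. Cldn11, whose product forms the strands of the barrier, had 2.86, 3.24 and 3.23 in MBP cells, against 3.11, 3.23 and 2.81 in control cells. Ocln, which encodes occludin, had 2.76, 2.61 and 2.97 in MBP cells, against 2.70, 2.67 and 2.98 in control cells. Both genes overlapped between the groups and lay far under the level of every array. Cldn3, a claudin under androgen control in the mouse Sertoli cell, had 3.22, 3.26 and 3.10 in MBP cells, against 2.94, 3.22 and 3.36 in control cells. Cldn5, the main claudin of endothelium, had 2.95, 2.999 and 2.999 in MBP cells, against 2.70, 2.95 and 3.24 in control cells. Neither passed the background level on any array, and both overlapped between the groups. The Cldn5 probe set lists 4 transcripts, 1 of them marked as a cross-hybridizing match. The 21 claudins below background had mean signals between 2.23 and 4.59, and a difference between groups at such levels says little about the transcript.

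Cldn12 was the claudin above background on all arrays. It encodes an unusual claudin that lacks the C-terminal motif by which most claudins bind zonula occludens proteins. Its signals were 7.31, 7.53 and 7.67 in MBP cells, against 7.53, 7.67 and 7.67 in control cells. The groups overlapped, and MBP minus control was -0.12 with a 95% interval of -0.28 to 0.04 when the numbers were matched. Without 1 array, in fits that did not match the numbers, the difference ranged from -0.205, without MBP number 3, to -0.023, without MBP number 1. Such a fit is unbalanced over the numbers, so differences between numbers enter it. Jam3, a junctional adhesion molecule that mouse spermatids need to become polarized, had 6.16, 6.29 and 6.28 in MBP cells, against 6.18, 6.30 and 6.28 in control cells. These signals lay above the level of each array and overlapped between the groups. They were closest to it in number 3, where the level was 6.18 in MBP and 6.20 in control cells. F11r, which encodes the junctional adhesion molecule of epithelium and platelets, was below background with 3.86, 3.63 and 4.03 in MBP cells, against 3.88, 3.50 and 4.09 in control cells.

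Tjp1, which encodes the scaffold ZO-1, was the zonula occludens gene above background. It had 7.92, 7.56 and 8.38 in MBP cells, against 7.81, 7.71 and 8.25 in control cells. In both groups number 3 was the highest and number 2 the lowest. Tjp3, the ZO-3 gene, was below background with 3.37, 3.31 and 3.28 in MBP cells, against 3.18, 3.29 and 3.24 in control cells. Neither gene separated the groups.

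Start-site sequences are shown for Gja1 and Cldn12, which were above background, and for the barrier genes Cldn11 and Ocln, which were not. This sets sequences of genes above and below the background level side by side. They run from 250 bases before to 50 bases after the annotated start, in RefSeq annotation of build GRCr8, 5′ to 3′ on the gene's strand. The positions are chr20:36302314-36302613 on the plus strand for Gja1, chr4:29482060-29482359 on the plus strand for Cldn12, chr2:114149490-114149789 on the minus strand for Cldn11 and chr2:33441149-33441448 on the minus strand for Ocln. Capitals mark the 3 motifs searched on both strands, which were the E-box bound by Snail-type repressors (CACCTG or CAGGTG), the GC box of Sp1 (GGGCGG or CCGCCC) and the AP-1 site (TGANTCA). The marked matches do not overlap one another.
Gja1: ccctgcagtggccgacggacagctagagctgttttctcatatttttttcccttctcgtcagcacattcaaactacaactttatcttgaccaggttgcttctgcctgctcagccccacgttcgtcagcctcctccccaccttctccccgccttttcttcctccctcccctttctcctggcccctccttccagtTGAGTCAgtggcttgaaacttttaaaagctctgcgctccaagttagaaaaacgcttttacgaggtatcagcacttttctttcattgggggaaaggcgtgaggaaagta
Cldn12: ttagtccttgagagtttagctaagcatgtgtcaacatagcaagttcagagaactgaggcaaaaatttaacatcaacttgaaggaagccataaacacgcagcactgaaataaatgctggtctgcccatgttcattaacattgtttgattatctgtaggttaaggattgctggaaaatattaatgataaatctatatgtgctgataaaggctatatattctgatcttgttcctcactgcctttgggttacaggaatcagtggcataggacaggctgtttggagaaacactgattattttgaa
Cldn11: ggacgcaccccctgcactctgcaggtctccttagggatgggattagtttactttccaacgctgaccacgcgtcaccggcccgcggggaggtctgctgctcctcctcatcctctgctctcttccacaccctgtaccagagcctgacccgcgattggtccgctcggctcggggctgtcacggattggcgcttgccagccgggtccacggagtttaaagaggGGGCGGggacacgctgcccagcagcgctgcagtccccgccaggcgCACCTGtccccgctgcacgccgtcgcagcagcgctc
Ocln: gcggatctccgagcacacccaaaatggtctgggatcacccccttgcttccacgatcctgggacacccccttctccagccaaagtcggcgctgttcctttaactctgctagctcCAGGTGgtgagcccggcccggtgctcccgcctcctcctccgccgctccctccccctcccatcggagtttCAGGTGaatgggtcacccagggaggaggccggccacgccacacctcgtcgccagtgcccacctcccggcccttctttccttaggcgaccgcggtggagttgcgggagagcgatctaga
Gja1 held 1 AP-1 match, Cldn12 none of the 3 motifs, Cldn11 an E-box and a GC box, and Ocln 2 E-boxes. Promoters were on hand for 52 of the 77 genes, 6 of them above background on all arrays and 46 not. Only the first listed start of each gene was used, here and among all RefSeq promoters, and any other start was not searched. The E-box letters occurred in 18.7% of all 27457 RefSeq promoters of this length, in none of the 6 and in 13 of the 46. The GC box occurred in 34.9% of all promoters, in 1 of the 6 and in 24 of the 46, and the AP-1 letters in 7.33% of all, in 1 of the 6 and in 3 of the 46. The motifs were picked after the signals were known, and a match describes letters in this window and shows no bound factor.

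Classical cadherins join cells by binding the same cadherin on the neighbour. Cdh2, which encodes N-cadherin, the main cadherin of Sertoli cells and of their contact with germ cells, had 9.68, 9.54 and 9.63 in MBP cells, against 9.58, 9.54 and 9.60 in control cells. All 6 signals lay within a narrow span, the groups overlapped, and the matched 95% interval of MBP minus control was -0.09 to 0.17. Cdh11, the cadherin of mesenchymal cells, had 7.81, 7.83 and 8.61 in MBP cells, against 7.59, 7.88 and 8.45 in control cells. Cdh3, which encodes P-cadherin, a cadherin of placenta and basal epithelial layers that is also found in the rodent testis, had 7.16, 6.88 and 8.75 in MBP cells, against 7.24, 7.10 and 8.87 in control cells. For both genes number 3 stood above the other numbers in either group, and MBP and control arrays of one number lay close together.

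The 19 remaining cadherins were below background on every array. Cdh1, the E-cadherin gene of epithelia, had 2.86, 3.07 and 2.76 in MBP cells, against 2.86, 2.76 and 2.86 in control cells. Cdh1 lies beside Cdh3 on chromosome 19, at 49635965 to 49705893 against 49537788 to 49587578 for Cdh3 in build Rnor_5.0, and 48386 bases separate the annotated genes. Only Cdh3 of this pair was above background, on all 6 arrays. Cdh5, the VE-cadherin gene of endothelium, had 4.94, 4.88 and 5.19 in MBP cells, against 4.97, 4.84 and 5.27 in control cells. Cdh19, a cadherin of neural crest derivatives, had 4.97, 5.51 and 5.09 in MBP cells, against 4.90, 5.29 and 4.998 in control cells, on a probe set annotated as matching other transcripts as well.

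Catenins link the cadherin tail to actin. Ctnnb1 encodes beta-catenin, which binds the tail of cadherins and also carries Wnt signals, and it had 9.59, 9.65 and 9.37 in MBP cells, against 9.61, 9.73 and 9.45 in control cells. Ctnna1, whose product alpha-catenin binds actin, had 8.702, 8.64 and 9.18 in MBP cells, against 8.71, 8.79 and 9.27 in control cells. Ctnnd1, whose product p120-catenin keeps cadherins at the membrane, had 8.86, 9.01 and 9.603 in MBP cells, against 8.85, 9.08 and 9.55 in control cells. All 3 overlapped between the groups. In both groups number 3 was the lowest for Ctnnb1 and the highest for Ctnna1 and Ctnnd1. The neural and muscle relatives Ctnna2, Ctnna3 and Ctnnd2 were below background, with means between 2.96 and 4.72.

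Nectins start cell contacts and recruit cadherins. Pvrl2 and Pvrl3, now called Nectin2 and Nectin3, bind each other between Sertoli cells and spermatids in the mouse, with nectin-2 on the Sertoli cell. Pvrl2 had 6.88, 6.89 and 6.96 in MBP cells, against 6.70, 7.13 and 7.01 in control cells. Pvrl3 had 6.54, 6.199 and 6.56 in MBP cells, against 6.37, 6.41 and 6.41 in control cells. For both genes the groups overlapped, with Pvrl2 wider among control arrays and Pvrl3 wider among MBP arrays. Pvrl1 straddled the background level with 5.81, 6.09 and 5.503 in MBP cells, against 5.799, 6.04 and 5.63 in control cells, and Pvrl4 was below it on every array.

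Gja1 encodes connexin 43, the main gap junction protein of Sertoli cells. It had 10.16, 10.01 and 10.28 in MBP cells, against 10.15, 10.11 and 10.25 in control cells. The groups overlapped, MBP minus control was -0.02, and its matched 95% interval was -0.16 to 0.12. Gja5, the connexin 40 gene of arterial endothelium and the atria, had 5.38, 5.90 and 4.20 in MBP cells, against 5.298, 6.04 and 4.797 in control cells. Its signal passed the background level in number 2 of each group and was lowest in number 3 of each group. The other 15 connexins, which include Gja4 of endothelium and Gjb2, the connexin 26 gene of epithelia, were below background with means between 2.17 and 4.67.

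**Figure D2:**
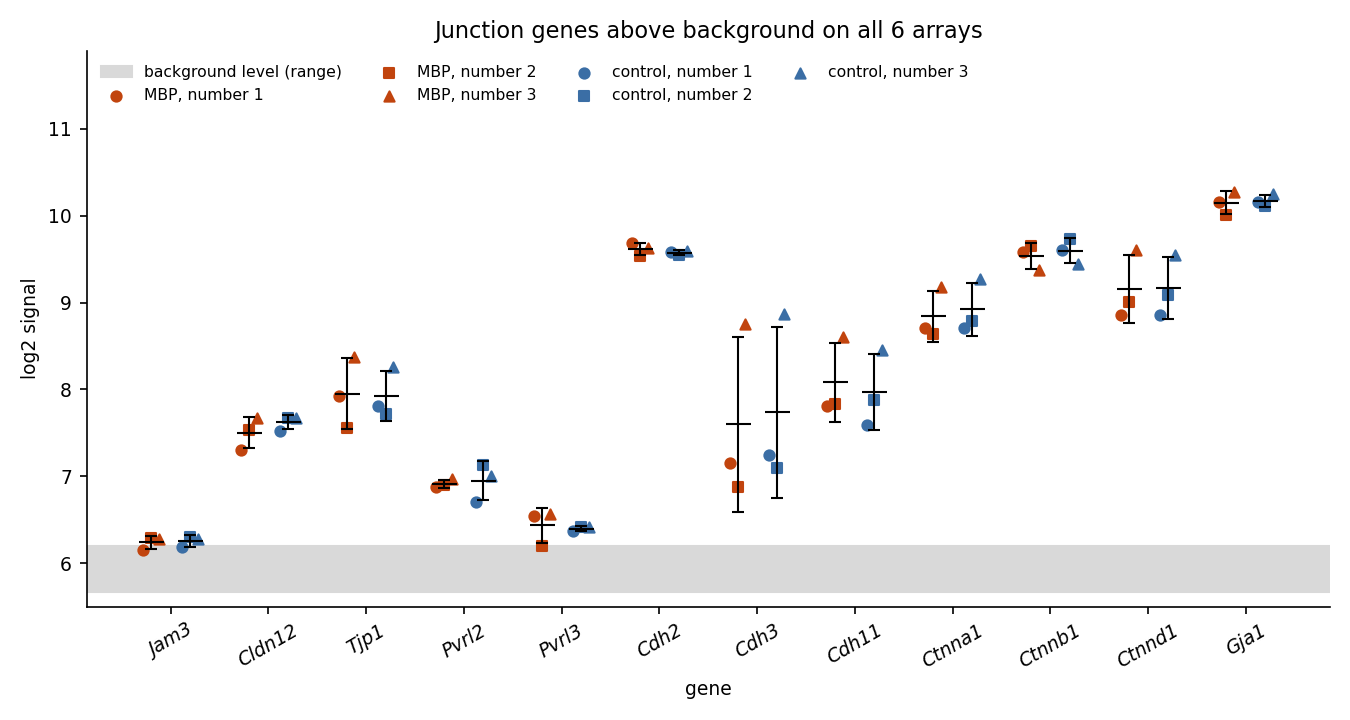
Log2 signal (y axis) of the 12 junction genes above background on all 6 arrays (x axis), with MBP arrays in orange at the left and control arrays in blue at the right of each gene. Circles, squares and triangles are numbers 1, 2 and 3, black lines the mean ± SD of 3 arrays, and the grey band the range of the background level. MBP and control arrays overlap for every gene, and Cdh3, Cdh11, Ctnna1, Ctnnd1 and Tjp1 have number 3 on top in both groups.

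The study asked which genes differ between MBP and control cells. None of the 77 junction genes passed an adjusted p of 0.05 in limma, where 0.0% of the 27342 main probe sets did. With the arrays matched by number, as a replicate block, none did either, and the smallest adjusted p of limma over all main probe sets was 0.865. At an unadjusted p under 0.05 there were 4 junction genes (5.19%), against 1.28% of all main probe sets, and the same 4 genes with the replicate block, against 4.59%. Without the block, 3 of them (3.9%) were higher in MBP cells, against 0.808% of all main probe sets, and 1 (1.3%) was lower, against 0.475%. MBP minus control was above 0 in 37 junction genes and below 0 in 40. Its median was -0.0049, against -0.0065 over all main probe sets. MBP was lower than control in each of the 3 numbers for 10 junction genes (13.0%), against 12.3% of all main probe sets, and higher in each for another 10, against 9.08%.

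The 3 genes higher in MBP cells were Cldn4, Cldn22 and Cdh26, and each was below background on all 6 arrays, so no fold is given. Cldn4, a claudin of tight epithelia, had 3.71, 3.83 and 3.797 in MBP cells, against 3.501, 3.498 and 3.65 in control cells. Cldn22 had 3.11, 3.098 and 3.199 in MBP cells, against 2.85, 2.85 and 3.001 in control cells. Cdh26 had 2.87, 3.18 and 2.87 in MBP cells, against 2.75, 2.76 and 2.64 in control cells. In these 3 genes every MBP array lay above every control array. The groups did not overlap in 4 junction genes (5.19%), against 3.43% of all main probe sets. These were Cldn4, Cldn22 and Cdh26, and also Gjb2, in which every MBP array lay below every control array, and none of them was above background.

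Among the 12 genes above background, MBP minus control was above 0 in 4 (Cdh11, Cdh2, Pvrl3 and Tjp1) and below 0 in 8, of which Ctnnd1, Gja1 and Jam3 were above 0 after quantile normalization. Of all 6341 main probe sets above background, 31.4% were higher in MBP cells on average. The median was -0.016 over the 12 genes, against -0.030 over the 6341. MBP was lower than control in all 3 numbers for Cdh3, Cldn12, Ctnna1 and Ctnnb1, which is 4 of 12 (33.3%), against 21.7% of the 6341. It was higher in all 3 numbers for none of the 12, against 5.91% of the 6341. Cdh3 had MBP minus control of -0.08, -0.22 and -0.12 in numbers 1, 2 and 3, and its adjusted p in limma was 0.865 with the replicate block. Cldn12 had -0.22, -0.14 and -0.001. Ctnna1 had -0.005, -0.15 and -0.09, and Ctnnb1 -0.02, -0.09 and -0.08.

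The precision of these values bears on how large a change could have gone unseen. Without the block, the 95% interval of MBP minus control excluded a 2-fold change of signal in either direction for 11 of the 12 genes above background, and for 6176 of the 6341 probe sets above it. Cdh3 was the exception among the 12, with an interval of -1.81 to 1.53. With the replicate block it was excluded for all 12 genes, whose intervals lay between -0.28 and 0.29, and for all 6341 probe sets. No such limit is given for genes at the background level. The intervals are those of single genes and were not widened for the number of genes tested.

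**Figure D3:**
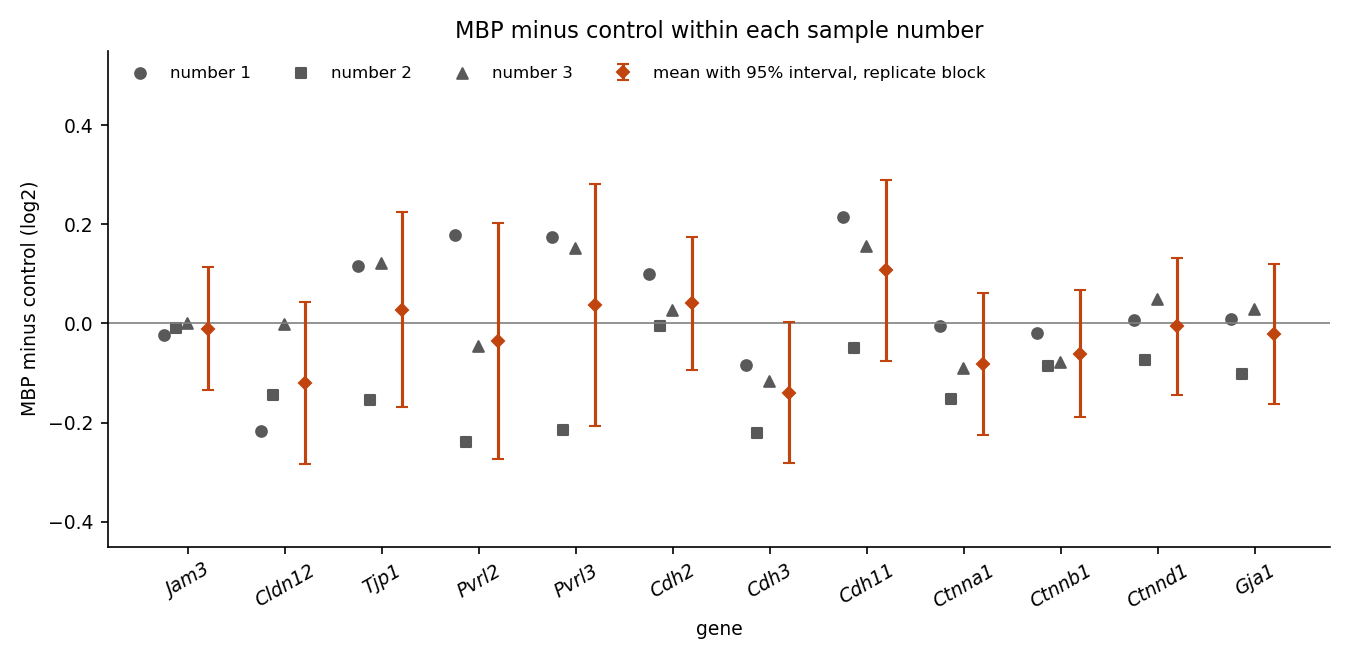
MBP minus control in log2 units (y axis) for the 12 junction genes above background (x axis), with grey symbols for the difference within each of the 3 numbers and an orange diamond with bars for the mean and its 95% interval from the fit with the replicate block. Every interval includes 0, and all lie between -0.28 and 0.29.

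Junction genes also differed with the number of a sample. With group and number in 1 limma model, an F test of the number passed an adjusted p of 0.05 for 12 of the 77 genes (15.6%), against 9.62% of all main probe sets. Of the 12 genes above background, 5 passed (41.7%), against 24.1% of the 6341. The highest of the number means lay further above the lowest than MBP lay from control, in absolute terms, in 67 of the 77 genes and in all 12 above background. The same held for 23978 of the 27342 main probe sets, and a span over 3 means of 2 arrays is by construction wider than a difference of 2 means of 3 arrays. The median span of the number means was 0.160 over the 77 genes, against 0.169 over all main probe sets. The median absolute MBP minus control was 0.044 over the 77 genes, against 0.055.

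Number 3 was the highest in 9 of the 12 genes that passed (11.7% of the 77), against 4.67% of all main probe sets. Above background these were Cdh3, Cdh11, Ctnna1, Ctnnd1 and Tjp1. Cdh3 averaged 7.20, 6.99 and 8.81 in numbers 1, 2 and 3, with an adjusted p of 0.0037 in limma. Cdh11 averaged 7.699, 7.86 and 8.53, with an adjusted p of 0.018 in limma. Number 3 thus exceeded the lowest number by 1.82 in Cdh3 and by 0.83 in Cdh11. Ctnnd1 averaged 8.85, 9.05 and 9.58, and Ctnna1 8.704, 8.72 and 9.23. Tjp1 averaged 7.86, 7.64 and 8.32, so that it was the only one of the 5 besides Cdh3 with its lowest mean in number 2. The other 4 genes highest in number 3 were below background, namely Cdh13, Cdh24, Cldn1 and F11r. Number 3 was the lowest in Gja5 and Pvrl1 (2.6% of the 77), against 3.9% of all main probe sets, and Cdh19 was highest in number 2.

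**Figure D4:**
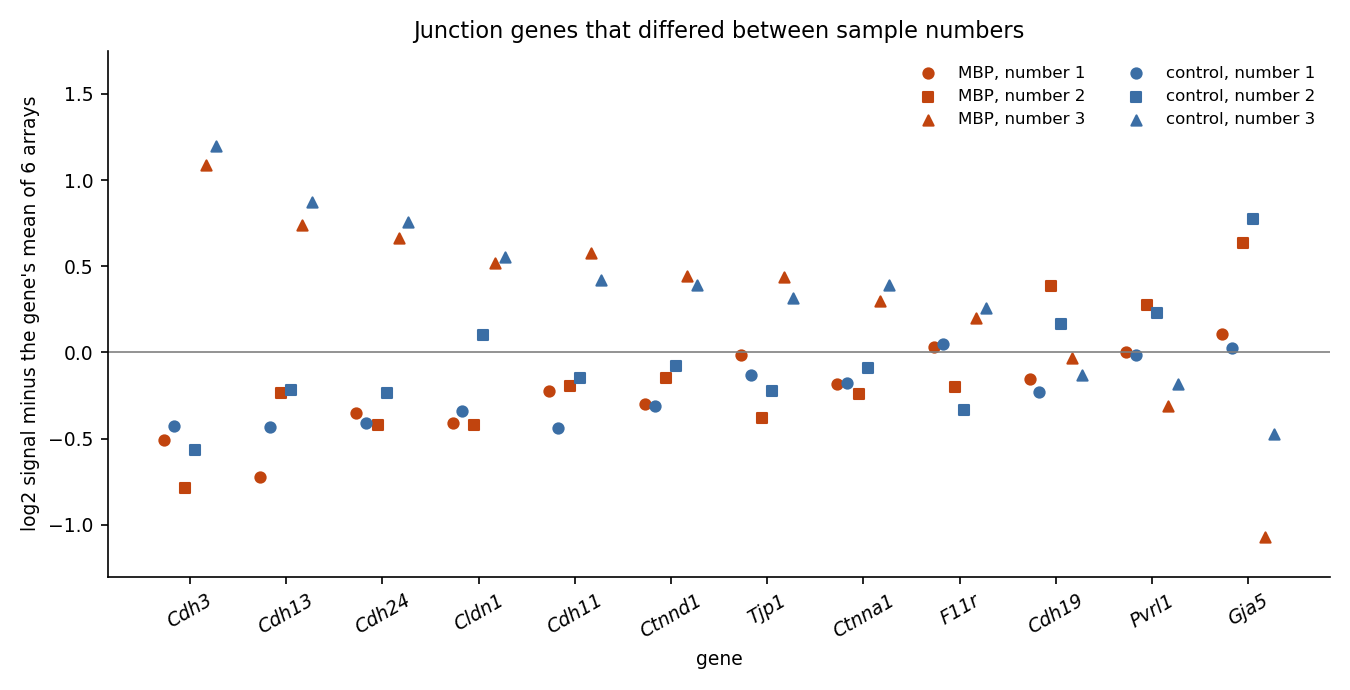
Log2 signal minus the gene's mean over the 6 arrays (y axis) for the 12 junction genes that differed between numbers (x axis), with MBP arrays in orange and control arrays in blue, and circles, squares and triangles for numbers 1, 2 and 3. Both number 3 arrays lie on top for 9 genes from Cdh3 to F11r, and at the bottom for Pvrl1 and Gja5.

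These calls rested on all 6 arrays. Without any 1 array, or without both arrays of a number, no main probe set passed in the model with group and number, which then has 1 residual degree of freedom when 1 array is missing. In a fit on the number alone, 3485 main probe sets and 15 junction genes passed, and without MBP number 3 or control number 3 none did. Other features moved with number 3. Its background level, set on the intron controls, was the highest of the numbers in both groups. In MBP and control cells 6661 and 6647 main probe sets lay above it, against 7568 to 8178 on the other arrays. The 95th percentile of the antigenomic controls went the other way. It was lowest in number 3, at 5.84 in MBP and in control cells, against 6.09 to 6.30 on the other arrays. The 18 measured genes of the peritubular myoid and fibroblast list averaged 8.67, 8.61 and 9.31 in MBP cells, against 8.70, 8.73 and 9.33 in control cells. Of these 18, with 16 above background, 13 (72.2%) passed the F test, against 24.1% of the 6341 main probe sets above background. Number 3 was the highest in 10 of the 13 and the lowest in 2, against 757 and 634 of the 1529 that passed among the 6341. Myh11, a smooth muscle myosin, had 7.205, 6.81 and 9.11 in MBP cells, against 7.16, 6.88 and 9.16 in control cells. The 24 Sertoli markers averaged 4.997, 5.04 and 4.999 in MBP cells, against 4.94, 5.04 and 4.96 in control cells, with 17 of them below background on all arrays. Of the 24, 5 (20.8%) passed the F test, against 9.62% of all main probe sets, 2 with number 3 highest and 3 with it lowest. Their part in the result was not tested.

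Genes that work with these families were described in the same way. Of 95 other junction genes measured, 23 (24.2%) were above background on each of the 6 arrays. This is close to the 23.2% of all main probe sets, which also include probe sets with no symbol. MBP minus control was above 0 in 44 and below 0 in 51, with a median of -0.010. None had an unadjusted p under 0.05 in limma, with or without the replicate block, against 1.28% and 4.59% of all main probe sets. The number of a sample passed the F test for 17 of the 95 (17.9%), against 9.62% of all main probe sets. Number 3 was the highest in 16 of these 17 and the lowest in none, against 1277 and 1065 of the 2630 main probe sets that passed. Among linkers of adherens junctions to actin, 11 of 22 were above background. Vcl, which encodes vinculin, a protein recruited to alpha-catenin under tension, had 9.45, 9.20 and 10.21 in MBP cells, against 9.48, 9.34 and 10.23 in control cells. Lpp, a zyxin relative at cell contacts, had 7.18, 7.14 and 8.58 in MBP cells, against 7.49, 7.34 and 8.57 in control cells. In both, number 3 stood above the other numbers in either group, and the groups overlapped.

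Of 16 desmosome genes, which anchor intermediate filaments, 2 were above background, Pkp1 and Pkp2. Pkp2, the plakophilin 2 gene, had 7.21, 6.19 and 8.34 in MBP cells, against 7.22, 6.37 and 8.24 in control cells, again highest in number 3 and lowest in number 2 of each group. The desmosomal cadherins Dsg2 and Dsc2 and the plaque gene Dsp were below background on all arrays. Of 34 scaffold and polarity genes 8 were above background, among them Cxadr, an adhesion molecule of tight junctions that coxsackieviruses use as a receptor, and Prkci, a kinase of the Par polarity complex. Cxadr had 7.11, 7.03 and 7.23 in MBP cells, against 7.11, 6.99 and 7.17 in control cells. None of the 3 pannexins, which form channels of the cell membrane, was above background, and of 21 protocadherin and other cadherin-type genes only Fat1 and Clstn1 were.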

How the data were processed

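RNA was measured on 6 rat gene arrays, 3 of MBP cells and 3 of control cells, numbered 1 to 3 in each group. The deposited value table holds log2 signals, 1 per probe set and array, as their range shows. MAS5 is named without a role in the submitters' processing notes, whereas the authors' annotated table calls its own signals RMA in its header, so how the values used here were normalized is not known from the labels or headers. The 6 signal columns of the annotated table match no sample label and were not used. Its annotation alone was read.

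Genes were chosen by symbol, with the brightest probe set of a symbol. Values of some genes are not reported here. Another 4 probe sets that carry a second symbol were left out. Sequences are RefSeq's, and gene positions are the array annotation's. A model of group was fitted to all 27342 main probe sets (lmFit and eBayes of limma 3.58.1, R 4.3.3), with Benjamini-Hochberg adjustment over all of them, and again with the replicate number as a block. Deviations from the group means of same-numbered MBP and control arrays correlated at 0.567, 0.603 and 0.779 over main probe sets. Those of different numbers correlated at -0.535 to 0.048. Deviations cancel out within a group, so the centring itself lowers the correlations of different numbers when those of the same number are positive. On this basis, drawn from the same data, the numbers were taken to pair the samples. The number itself was tested by limma's F test in the model of group and number. The fits were tested on simulated data in which all probe sets shared the same residual SD. A minimum recovery of planted changes was required only of the fits with the number in the model. Alternatives were normalization, filtering, the variance prior, the background level, the choice of probe set and leaving out arrays or numbers. An array has no counting depth, and 3 arrays a group limit the precision. The members, gene lists and tests were chosen with earlier results of these data known.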

Additional observations from a re-analysis of the deposited data

How the results depend on the processing

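No main probe set and no junction gene passed an adjusted p of 0.05 for MBP minus control under any alternative run, and the replicate block, which pairs the samples by number, changed no call (0 with it and 0 without). The median MBP minus control over all 77 genes was -0.030 with median centring of each array, with or without the replicate block, and ranged from -0.024 to 0.018 when an array or a number was left out. Over the genes above background it ranged from -0.120 to 0.058. Quantile normalization, with or without the replicate block, turned the sign of Ctnnd1 (0.036), Gja1 (0.0019) and Jam3 (0.0098). Leaving out 1 array also turned signs, with ranges of -0.156 to 0.345 for Cdh11, -0.717 to 0.426 for Cdh3, -0.253 to 0.092 for Ctnna1, -0.135 to 0.021 for Ctnnb1, -0.229 to 0.189 for Ctnnd1, -0.085 to 0.049 for Gja1, -0.048 to 0.032 for Jam3, -0.159 to 0.058 for Pvrl2, -0.028 to 0.155 for Pvrl3 and -0.184 to 0.224 for Tjp1. With the replicate block and a number left out, values were -0.031, -0.020 and 0.163 for Pvrl3, -0.016, -0.019 and 0.118 for Tjp1, and at most 0.028 for Ctnnd1, 0.019 for Gja1 and 0.067 for Pvrl2. None of these differences had passed the test. The fits without 1 array, here and for the medians, had no replicate block and were unbalanced over the numbers. Differences between numbers therefore enter their values and signs. The number test gave 4052 main probe sets and 7 junction genes when only probe sets above background were fitted, where fewer genes were tested, and none of either when an array or a number was left out. On the number alone it gave 520, 490, 344 and 580 probe sets and 2, 4, 2 and 4 junction genes without MBP 1, MBP 2, control 1 and control 2, in that order, and none without MBP 3 or control 3. Of the genes above background, 4 were so at the 99th percentile of the intron controls and 12 with any array or number left out. Signals near the background level limit what can be said of the other 65 genes.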
